A study of Mus musculus with 12 samples.

Results

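Map2, Tmod2, Mapt, Tubb3, Dcx, Stmn2, Nefl and Nefm encode parts of the cytoskeleton that neurons are known for. The 8 genes were matched by symbol among the 55141 genes of the count table, and each symbol matched a single gene. They were chosen by a rule made with earlier results of the embedding time comparison known, in which Map2 stood out, so every embedding time value of these 8 genes is given as a description with no p-value. The gel concentration comparisons were tested. Whether the embedding time difference depends on the gel is worked out from the same embedding time values. For these 8 genes it is therefore a description too.

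The study asked how a gastruloid, an aggregate of mouse embryonic stem cells that forms germ layers and an axis in culture, develops inside a soft gel. All 12 libraries came from 129/SVEV embryonic stem cells seeded at 300 cells per aggregate, left to aggregate for 48 h, and given 3 µM CHIR 99021, a GSK3 inhibitor that activates Wnt signalling, for 24 h. The aggregates were then embedded in a bioinert dextran-PEG hydrogel at 72 h or at 96 h after seeding, in a softer gel (1.0 mM) or a stiffer gel (1.5 mM), and all were collected at 120 h, so gastruloids embedded at 72 h spent 48 h in the gel and those embedded at 96 h spent 24 h in it. Each of the 4 groups had 3 replicates, each a pool of about 30 gastruloids, and no gastruloids grown without a gel were analysed here. Embedding time and time spent in the gel therefore cannot be told apart.

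Poly-A RNA was sequenced, the libraries held 23011791 to 27609422 counts, and 1 CPM (the unit of per-million counts) stood for 22.5 to 27.2 reads after scaling. Replicates of a group differed by more than counting noise in every pair (chi-square per degree of freedom 9.23 to 111), and the replicate 1 library of the 72 h, 1.5 mM group stood apart most from its group (66.6 and 111). Some values that rest on it are also given without it. The samples are whole gastruloids, so fewer cells of a type and less RNA per cell cannot be told apart in any value below.

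Microtubules are polymers of alpha and beta tubulin. In neurons they carry associated proteins that differ by compartment: MAP2 is best known from dendrites and the cell body, and tau, the product of Mapt, from axons. Neurofilaments are the intermediate filaments that fill mature axons, and capped actin filaments form the cortex beneath the neuronal membrane. Tubb3 and Dcx are standard markers of newly born neurons, although messenger RNA of several of these genes is also found at low level outside neurons.

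The 8 genes lie on 7 chromosomes of the mm10 build, and all are annotated as protein coding. Map2 spans chr1:66175273-66442583 on the plus strand, Tmod2 chr9:75565621-75611325 on the minus strand, Mapt chr11:104231390-104332090 on the plus strand, and Tubb3 chr8:123411424-123422015 on the plus strand. Dcx spans chrX:143855842-143933311 on the minus strand and Stmn2 chr3:8509360-8561606 on the plus strand. Nefl, at chr14:68083863-68089095 on the plus strand, lies inside the annotated span of Nefm, at chr14:68082590-68124846 on the minus strand. The exons of the 2 neurofilament genes share 1108 bases, chr14:68083863-68084970. The kit kept strand, but the strand setting used in counting was not given in the sources used here, so reads from that stretch may have been counted for either gene. Map2 and Mapt also have annotated genes on the opposite strand within their span (Gm10558 for Map2, and Gm11659, Gm22743 and Gm47310 for Mapt), as does Nefm (Gm19216, besides Nefl). Tubb3, Tmod2 and Map2 overlap gene models on their own strand (Gm20388 for Tubb3, Gm48822 for Tmod2, and Gm24729 and Gm25411 for Map2).

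Map2, Tubb3 and Tmod2 were all higher in gastruloids embedded at 72 h, and the sequences just upstream of them are shown to set side by side what lies before the start of genes whose levels moved together. RefSeq promoters (GRCm38.p6) were given for 4 of the 8 members. The stretches below are the parts of the 250 bases before the RefSeq start that lie outside the annotated gene span, 5′ to 3′ on the gene's strand. Capitals mark matches on either strand to any of 4 motifs. The GC box was searched as GGGCGG. The CCAAT box was searched by the 5 letters of its name. For the TATA box the letters were TATAAA. The E-box was searched in the form CAGCTG. No match overlapped another.
Map2 (chr1:66175079-66175272, plus strand): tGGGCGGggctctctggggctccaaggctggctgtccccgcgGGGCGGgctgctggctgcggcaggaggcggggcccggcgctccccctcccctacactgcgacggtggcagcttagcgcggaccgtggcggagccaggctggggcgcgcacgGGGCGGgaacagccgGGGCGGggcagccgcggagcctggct
Tubb3 (chr8:123411303-123411423, plus strand): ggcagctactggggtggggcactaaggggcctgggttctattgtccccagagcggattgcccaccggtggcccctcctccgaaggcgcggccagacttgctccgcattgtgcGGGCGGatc
Tmod2 (chr9:75611326-75611575, minus strand): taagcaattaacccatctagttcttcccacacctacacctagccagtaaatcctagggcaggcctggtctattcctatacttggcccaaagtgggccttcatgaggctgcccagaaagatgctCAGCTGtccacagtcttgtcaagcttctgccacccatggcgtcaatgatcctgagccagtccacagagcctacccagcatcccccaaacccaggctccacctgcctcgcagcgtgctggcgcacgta

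The Map2 stretch of 194 bases held 4 GC boxes and was 79.4% G and C, against a median of 51.5% over the same stretch of 32851 mouse promoters, of which 23.6% held a GC box. The Tubb3 stretch of 121 bases held 1 GC box and was 67.8% G and C, against a median of 50.4%, and 12.9% of promoters held a GC box in that stretch. The Tmod2 stretch of 250 bases held no GC box and 1 E-box, a motif found in 13.0% of promoters over the same length. It was 55.6% G and C against a median of 52.4%. The 3 genes thus shared none of the 4 motifs in all of these stretches. No CCAAT or TATA box was present in any of the stretches, where 27.5%, 16.3% and 33.8% (CCAAT) and 8.9%, 6.1% and 12.4% (TATA) of promoters held one over 194, 121 and 250 bases. The full windows of 250 bases, which for Map2 and Tubb3 run into the annotated gene, held 5 GC boxes for Map2, and 2 GC boxes and 1 CCAAT box for Tubb3. Dcx, whose fold change was called in neither gel and whose promoter is not shown, had a TATA box in the windows of both its RefSeq starts and a CCAAT box in 1 of them.

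Across the 12 libraries, the members spanned a wide range of levels per length. On the FPKM scale (fragments per kilobase, scaled to library size, as deposited), mean levels over all libraries were 6.48 ± 2.43 (SD, n = 12) for Nefl, 3.37 ± 1.27 for Tmod2, 2.77 ± 0.995 for Tubb3, 2.47 ± 0.952 for Stmn2 and 2.01 ± 1.15 for Map2. Nefm followed at 1.60 ± 0.551, Mapt at 0.443 ± 0.242 and Dcx at 0.0439 ± 0.0219. From Tmod2 down to Nefm each gap between neighbours was smaller than the SD of either, so the order there is not set beyond the spread. Mapt lay below Nefm, and Dcx below Mapt, in every library. Dcx rested on 3 to 25 reads per library.

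The order changed with embedding time. With the softer gel, Tmod2 had the highest mean level after embedding at 72 h, 4.77 ± 0.381 FPKM (n = 3), with Nefl at 4.08 ± 0.815 and Tubb3 at 3.67 ± 0.571, so that neighbours in that order lay within the larger of their SDs. After embedding at 96 h, Nefl stood at 9.20 ± 2.08 FPKM, while Tmod2 was at 2.47 ± 0.279 and Nefm at 2.06 ± 0.515. In the 1.5 mM gels Nefl led in both groups, at 5.19 ± 1.34 FPKM after embedding at 72 h and 7.47 ± 1.34 FPKM after embedding at 96 h.

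**Figure D1:**
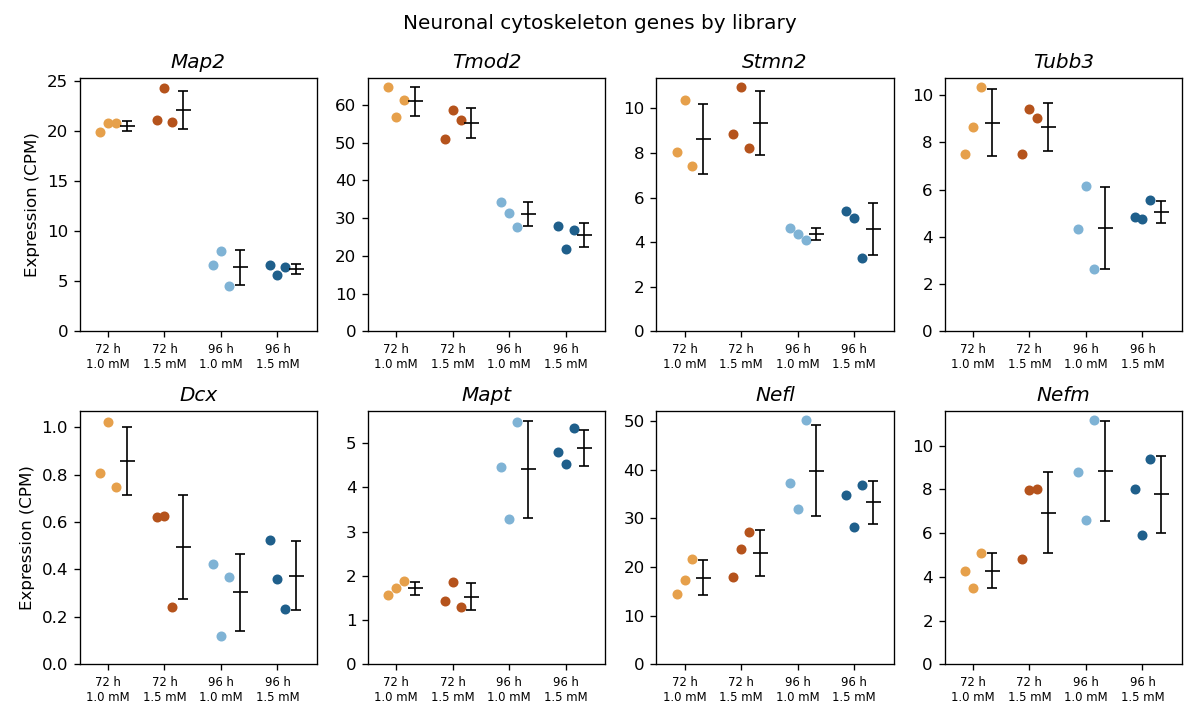
Expression of the 8 genes in each library, in CPM on linear axes that start at 0, by embedding time and gel concentration. Each point is a library, and the black bar beside it is the mean ± SD of 3; the top row (Map2, Tmod2, Stmn2, Tubb3) was higher in gastruloids embedded at 72 h, and Mapt and Nefl were lower.

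The embedding time comparison asks what differs at 120 h between gastruloids embedded early and late. Map2, Tmod2, Stmn2 and Tubb3 were higher in gastruloids embedded at 72 h, in both gels, and Mapt and Nefl were lower in both. Map2 was 3.22-fold higher in 1.0 mM gels. A gene was called changed where its adjusted p in edgeR's quasi-likelihood test was below 0.05 over all genes tested and its log2 fold change was above 1 or below -1. In 1.0 mM gels, 2 members were called higher (Map2 and Tubb3) and 3 lower (Mapt, Nefl and Nefm), where 2.61% of 15763 genes tested were called higher and 1.69% lower. In 1.5 mM gels, 3 were called higher (Map2, Tmod2 and Stmn2) and 1 lower (Mapt), where 1.61% of 15683 genes were called higher and 1.57% lower. The 8 genes were selected on this contrast, so nothing is read from these counts. Limma on log2(FPKM + 0.1) called 0 members in 1.0 mM gels, and the edgeR count of 5 there was 2 to 6 with each library left out. Shares of all genes called by embedding time in those fits are not given here, nor for the libraries left out below.

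Without the fold threshold, 4 members were higher and 3 lower at an adjusted p below 0.05 in 1.0 mM gels (5.97% and 3.27% of all genes), and 4 were higher and 2 lower in 1.5 mM gels (10.4% and 8.98% of all genes). Tmod2 and Stmn2 lay just under the fold threshold in 1.0 mM gels (both 0.98), and Tubb3 and Nefl were the members under it in 1.5 mM gels. In a fit of all 12 libraries, 2 members were called higher (Map2 and Tmod2) and 1 lower (Mapt), against 2.36% and 2.29% of 16388 genes. Without the fold threshold, 5 were higher and 3 lower in that fit, against 16.2% and 14.8% of all genes. Without the replicate 1 library of the 72 h, 1.5 mM group, 3 were called higher and 1 lower there, with Stmn2 at 1.01, and 3 higher and 1 lower in 1.5 mM gels. The CPM values of the 72 h and 96 h libraries did not overlap for 8 of 8 members in 1.0 mM gels, where 28.4% of genes did not overlap. In 1.5 mM gels they did not overlap for 6 of 8, the exceptions being Dcx and Nefm, where 39.9% of genes did not overlap. The median log2 fold change of the members was 0.98 in 1.0 mM gels and 0.58 in 1.5 mM gels, beside -0.0054 and -0.0052 for all genes tested.

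**Figure D2:**
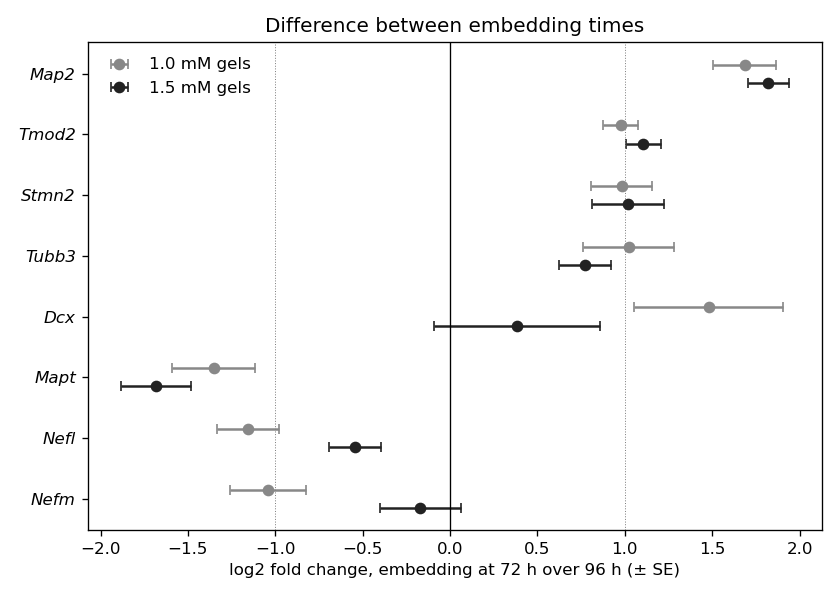
Log2 fold change of each gene between embedding at 72 h and at 96 h (positive, higher at 72 h), with SE, in 1.0 mM gels (grey) and 1.5 mM gels (black), from edgeR; dotted lines mark log2 fold changes of 1 and -1. Map2 lay at 1.69 and 1.82 and Mapt at -1.35 and -1.68, on opposite sides of 0 in both gels.

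Map2 stabilises and spaces microtubules. In the softer gel, its 3 libraries from embedding at 72 h read 19.9, 20.8 and 20.8 CPM (470, 510 and 499 reads), and those from 96 h read 6.67, 8.03 and 4.52 CPM (174, 200 and 123 reads). Map2 values in the stiffer gel were 21.1, 24.3 and 20.9 CPM for 72 h and 6.67, 5.62 and 6.39 CPM for 96 h. All 6 early libraries lay above all 6 late ones, with no overlap. The log2 fold change was 1.69 (SE 0.181) in 1.0 mM gels and 1.82 (SE 0.118) in 1.5 mM gels.

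Mapt encodes tau, which also binds along microtubules, and it went the other way. It read 1.57, 1.72 and 1.87 CPM (37, 42 and 45 reads) for 72 h in the softer gel and 4.45, 3.29 and 5.48 CPM (116, 82 and 149 reads) for 96 h. The stiffer gel gave 1.42, 1.87 and 1.3 CPM for 72 h, against 4.80, 4.54 and 5.33 CPM. Every early library lay below every late one. Mapt had a log2 fold change of -1.35 (SE 0.238) and -1.68 (SE 0.202) in 1.0 and 1.5 mM gels.

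The ratio of the 2 genes within a library does not depend on its depth. Map2 over Mapt, on the FPKM scale, was 12.5, 12.5 and 10.7 for 72 h in the softer gel and 1.58, 2.64 and 0.849 for 96 h. For the stiffer gel the ratio was 16.0, 14.9 and 17.0 at 72 h and 1.41, 1.28 and 1.23 at 96 h. No early library came near a late one, and in the replicate 3 library of the 96 h, 1.0 mM group the ratio was below 1.

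**Figure D3:**
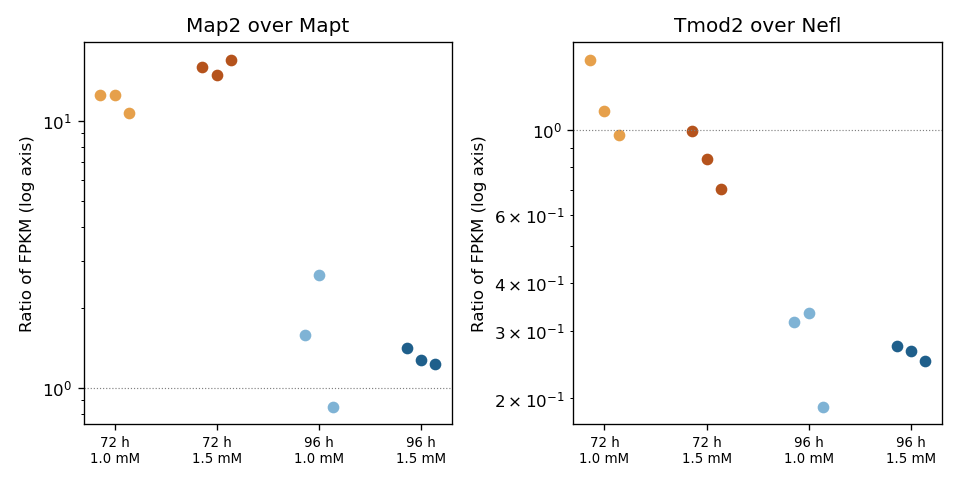
Ratio of FPKM values within each library for Map2 over Mapt (left) and Tmod2 over Nefl (right), on log axes, by embedding time and gel concentration; each point is a library, and the dotted line marks a ratio of 1. Map2 over Mapt lay at 10.7 to 17.0 after embedding at 72 h and at 0.849 to 2.64 after embedding at 96 h.

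Stmn2, or SCG10, is a stathmin that binds tubulin and promotes microtubule turnover in growth cones. It read 8.05, 10.4 and 7.41 CPM after embedding at 72 h and 4.64, 4.38 and 4.12 CPM after embedding at 96 h in the softer gel, and 8.84, 11.0 and 8.23 CPM against 5.40, 5.10 and 3.27 CPM in 1.5 mM gels. The early and late libraries did not overlap in either gel. Its log2 fold change was 0.98 (SE 0.174) in 1.0 mM gels and 1.02 (SE 0.204) in 1.5 mM gels, on the 2 sides of the threshold although the values are alike.

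Dcx, or doublecortin, binds microtubules in migrating young neurons, and was barely detected. Its counts were 19, 25 and 18 reads after embedding at 72 h and 11, 3 and 10 reads after embedding at 96 h in the softer gel. In 1.5 mM gels they were 14, 14 and 6 reads against 14, 9 and 6 reads, which overlap. The log2 fold change was 1.48 (SE 0.426) in 1.0 mM gels and 0.38 (SE 0.475) in 1.5 mM gels, and it was called in neither.

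Tubb3 encodes the beta-tubulin isotype used as a neuronal marker. It read 7.50, 8.66 and 10.3 CPM for 72 h in the softer gel and 4.33, 6.14 and 2.65 CPM for 96 h, and in the stiffer gel 7.51, 9.39 and 9.04 CPM against 4.84, 4.74 and 5.57 CPM. The groups did not overlap in either gel, though the late 1.0 mM libraries were spread widely. Tubb3 had a log2 fold change of 1.02 (SE 0.261) in 1.0 mM gels and 0.77 (SE 0.147) in 1.5 mM gels. Its call in 1.0 mM gels was lost in 4 of 13 alternative fits. Among these was the fit without the replicate 3 library of the 96 h group, where the log2 fold change was 0.76.

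Nefl and Nefm encode the light and medium neurofilament subunits. Nefl read 14.5, 17.3 and 21.6 CPM after embedding at 72 h and 37.3, 32.0 and 50.1 CPM after embedding at 96 h in the softer gel. It read 17.9, 23.6 and 27.2 CPM against 34.8, 28.2 and 36.8 CPM in the stiffer gel. All early libraries were below all late ones in each gel, with a narrow gap in 1.5 mM gels. For Nefl the log2 fold change was -1.16 (SE 0.180) in 1.0 mM gels and -0.54 (SE 0.151) in 1.5 mM gels. Over 13 alternative fits, which include each library left out, the value in 1.5 mM gels ranged from -0.69 to -0.40. Whether it passed an adjusted p of 0.05 depended on the fit, and nothing is read from that.

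Nefm read 4.28, 3.51 and 5.08 CPM after embedding at 72 h and 8.78, 6.58 and 11.2 CPM after embedding at 96 h in the softer gel. The corresponding values in 1.5 mM gels were 4.80, 7.97 and 8.03 CPM and 8.02, 5.90 and 9.38 CPM. Early and late libraries were apart in the softer gel and overlapped in the stiffer one. For Nefm the log2 fold change was -1.04 (SE 0.218) in 1.0 mM gels and -0.17 (SE 0.229) in 1.5 mM gels, where it was 0.03 without the replicate 1 library of the 72 h group. In 1.0 mM gels both neurofilament genes lost their call without the replicate 3 library of the 96 h group, at log2 fold changes of -0.96 for Nefl and -0.84 for Nefm. Without that library 2 of the 8 members were called, Map2 and Mapt. Nefl over Nefm, on the FPKM scale, was 4.18 ± 0.828 (n = 3), 4.50 ± 0.327, 3.34 ± 0.328 and 4.29 ± 0.415 in the 72 h, 1.0 mM, 96 h, 1.0 mM, 72 h, 1.5 mM and 96 h, 1.5 mM groups. The ratio stayed between 2.98 and 4.96 in every library.

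Tmod2, or tropomodulin 2, caps the pointed ends of actin filaments and is the tropomodulin best known from neurons. It read 64.6, 56.8 and 61.3 CPM after embedding at 72 h and 34.2, 31.3 and 27.8 CPM after embedding at 96 h in the softer gel, and 50.9, 58.6 and 55.8 CPM against 27.9, 21.9 and 26.7 CPM in 1.5 mM gels. All early libraries lay well above all late ones. Tmod2 had a log2 fold change of 0.98 (SE 0.10) in 1.0 mM gels and 1.11 (SE 0.0987) in 1.5 mM gels, with the smallest SE of the 8 genes in both. Tmod2 over Nefl, on the FPKM scale, was 1.21 ± 0.287 after embedding at 72 h and 0.280 ± 0.0784 after embedding at 96 h in the softer gel, and 0.846 ± 0.144 against 0.264 ± 0.0123 in 1.5 mM gels.

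Gel concentration was the second question of the design. A more concentrated gel is stiffer and, by the study's theoretical estimate, has a finer mesh. Stiffness and mesh size cannot be told apart here. No member was called between 1.5 mM and 1.0 mM gels at either embedding time, nor was any other gene (0.00% of 15563 genes at 72 h and 0.00% of 15861 at 96 h by edgeR). At an unadjusted p below 0.05 there were 1074 and 1578 genes, of which 1 and 1 were members. DESeq2 called 4 and 10 genes, none of them a member. After embedding at 72 h, Nefm had a log2 fold change of 0.69 (95% interval 0.17 to 1.22, edgeR adjusted p = 0.698). Without the replicate 1 library of the 1.5 mM group it was at 0.89 (edgeR adjusted p = 0.097). Nefl was at 0.36 (-0.04 to 0.77, edgeR adjusted p = 0.704) and Dcx at -0.80 (-1.69 to 0.09, edgeR adjusted p = 0.704). Over 13 alternative fits the Nefl value ranged from 0.22 to 0.53. None of these passed the correction.

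Map2 differed between the gels by 0.11 on the log2 scale at 72 h (-0.13 to 0.34, edgeR adjusted p = 0.834) and by -0.04 at 96 h (-0.46 to 0.39, edgeR adjusted p = 0.971). A log2 fold change of 1 or -1, the threshold for a call, lay outside both intervals. Tmod2 differed by -0.15 at 72 h (-0.35 to 0.06, edgeR adjusted p = 0.735) and by -0.29 at 96 h (-0.52 to -0.05, edgeR adjusted p = 0.438). Over both embedding times Tmod2 was at -0.21 (-0.37 to -0.06, edgeR adjusted p = 0.249), in a comparison that called 0.00610% of 16388 genes. The other members had adjusted p-values of 0.684 or more there by edgeR. At 96 h Dcx had too few reads to be tested, and the remaining members had adjusted p-values of 0.604 to 0.948.

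**Figure D4:**
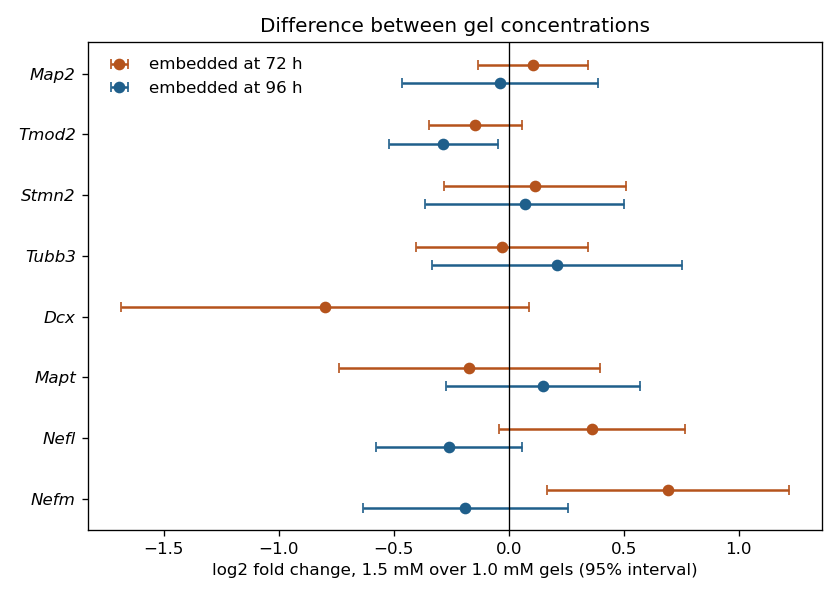
Log2 fold change of each gene between 1.5 mM and 1.0 mM gels (positive, higher in 1.5 mM), with 95% intervals, after embedding at 72 h (brown) and at 96 h (blue), from edgeR; Dcx had too few reads to be tested at 96 h. No gene had an adjusted p below 0.05, and the intervals of Nefm at 72 h (0.17 to 1.22) and Tmod2 at 96 h (-0.52 to -0.05) left out 0.

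Whether the embedding time difference itself depended on the gel was fitted as an interaction term in all libraries, positive for a larger 72 h over 96 h change in 1.5 mM gels. It called no member and 0.00% of all 16388 genes by edgeR (708 genes at an unadjusted p below 0.05, and 0 called by DESeq2). The term is a difference of embedding time values, so for the members it is given as a description with no p-value. Nefm was at 0.88 (SE 0.342) and Nefl at 0.62 (SE 0.263). Map2 was at 0.14 (SE 0.225), Tmod2 at 0.14 (SE 0.145) and Mapt at -0.32 (SE 0.307). The call of Nefl and Nefm in 1.0 mM gels alone is therefore not a tested difference between the gels.

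The label of a neuronal gene group was checked against genes listed as neuron markers or neurogenesis factors, not all of which are particular to neurons. Several were close to absent in these libraries: Neurog1 and Neurod4 had 0 to 1 reads, Neurog2 and Syt4 0 to 6, and Elavl3, an RNA-binding protein of young neurons, 8 to 18 reads per library. Syn1 (11 to 34 reads), Snap25 (20 to 48 reads) and Rbfox3 (14 to 83 reads), genes of synapses and mature neurons, were low. Other genes of the same lists were well detected. Among neuron markers these were Ncam1 (2015 to 2675 reads), Vamp2 (1039 to 1475 reads), Uchl1 (448 to 785 reads), Nsg2 (380 to 881 reads), Elavl2 (318 to 570 reads), Nsg1 (286 to 550 reads) and Stx1a (222 to 428 reads). Among neurogenesis factors they were Ebf3 (1271 to 3652 reads), Ebf2 (583 to 1573 reads) and Isl1 (353 to 1531 reads). The lists thus held genes close to absent and genes with more reads than Tubb3 (72 to 248 reads).

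Of 19 neuron markers, 18 had enough reads to be tested. In 1.0 mM gels 1 was called higher after embedding at 72 h and 0 lower, and in 1.5 mM gels 1 was called higher and 1 lower. The gene higher in both was Scg3, a secretory granule protein (log2 fold change 2.50, SE 0.418, and 1.92, SE 0.331), on 2 to 24 reads. Rbfox3 was lower in 1.5 mM gels (-1.24, SE 0.289) and at -0.86 (SE 0.309) in 1.0 mM gels. The median log2 fold change of the list was 0.03 in 1.0 mM gels and 0.17 in 1.5 mM gels, and its summed level ranged from 238 to 265 CPM after embedding at 72 h and from 251 to 264 CPM after embedding at 96 h in the softer gel. In the stiffer gel it ranged from 262 to 276 CPM and from 236 to 255 CPM. The summed marker level thus overlapped between embedding times in 1.0 mM gels, and was higher in every 72 h library in 1.5 mM gels. Abundant genes carry much of this sum. In 1.5 mM gels the 72 h and 96 h means were 104 and 85.3 CPM for Ncam1, and 58.6 and 45.6 CPM for Vamp2. Nsg2 (19.4 and 25.6 CPM) and Stx1a (10.8 and 15.8 CPM) went the other way. Of the tested markers, 11 were higher and 7 lower there, so the sum does not stand for the list.

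Among 21 neurogenesis factors, 9 could be tested in 1.0 mM gels and 8 in 1.5 mM gels. In 1.0 mM gels 2 were called higher and 1 lower, and in 1.5 mM gels 2 were called higher and 0 lower. Insm1, a zinc-finger factor of neuronal and endocrine progenitors, was called higher in both (2.35, SE 0.270, and 1.42, SE 0.284). Isl1, a LIM factor of motor neurons and of cardiac progenitors, was higher in 1.0 mM gels (1.45, SE 0.230) and at 0.43 (SE 0.180) in 1.5 mM gels. Mnx1, a factor of motor neurons and notochord, was higher in 1.5 mM gels (1.27, SE 0.248). Neurod1 was lower in 1.0 mM gels (-1.62, SE 0.415), on 4 to 19 reads per library, and was not tested in 1.5 mM gels. The list median was -0.22 in 1.0 mM gels and 0.07 in 1.5 mM gels.

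Other cytoskeleton genes were followed in 3 further lists, to be read beside the shares called over all genes (2.61% higher and 1.69% lower in 1.0 mM gels, 1.61% and 1.57% in 1.5 mM gels). Of 25 further microtubule genes, 24 were tested, with 0 called higher and 1 lower in 1.0 mM gels and 0 in either direction in 1.5 mM gels. Dclk2, a relative of doublecortin, was the gene called (-1.31, SE 0.110) and was at -0.71 (SE 0.177) in 1.5 mM gels. Without the fold threshold, 4 were higher and 2 lower at an adjusted p below 0.05 in edgeR in 1.0 mM gels (5.97% and 3.27% of all genes), and 8 higher and 3 lower in 1.5 mM gels (10.4% and 8.98% of all genes). The list median was 0.08 and 0.30, with 17 log2 fold changes above 0 and 7 below in 1.0 mM gels, and 18 and 6 in 1.5 mM gels. In 1.0 mM gels the 72 h and 96 h means were 232 and 119 CPM for Map1b, 12.4 and 7.95 CPM for Kif1a, and 49.7 and 31.3 CPM for Kif5c. In 1.5 mM gels they were 231 and 120 CPM, 14.5 and 7.53 CPM, and 48.7 and 32.6 CPM. Tubb5, the most abundant tubulin listed, had 73266 to 94127 reads per library, against 72 to 248 reads for Tubb3. On the FPKM scale Tubb5 averaged 995 and Tuba1a 233, beside 2.77 for Tubb3.

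Of 6 intermediate filament genes outside the members, 4 were tested and 0 were called in either gel. Vim, the filament of mesenchyme and progenitors, was at 0.45 (SE 0.110) and 0.27 (SE 0.121), and Nes, the filament of neural progenitors, at -0.29 (SE 0.124) and -0.03 (SE 0.186). Nefh, the heavy neurofilament subunit, had 1 to 12 reads, too few to be tested. Of 19 actin and growth cone genes, 17 were tested. Of these, 1 was called higher and 1 lower in 1.0 mM gels, and 0 higher and 1 lower in 1.5 mM gels, with medians of -0.06 and -0.06. Gap43, a membrane protein of growth cones, was lower in both (-1.39, SE 0.196, and -1.56, SE 0.217). Tmod1, the tropomodulin of erythrocytes and striated muscle, was higher in 1.0 mM gels (1.98, SE 0.432) and at 0.04 (SE 0.445) in 1.5 mM gels.

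Among 9 genes that repress neuronal genes in non-neuronal cells, such as Rest and its partners, 0 were called in either gel, with medians of 0.04 and 0.08. Ptbp1, a splicing repressor, was at 0.07 (SE 0.0559) in 1.5 mM gels, and Rcor2 at 0.08 (SE 0.0775) and 0.11 (SE 0.0600).

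Markers of other cell types moved with embedding time as well. Of 9 cardiac markers, 8 were called higher in the 72 h libraries of 1.0 mM gels and 1 in 1.5 mM gels, with medians of 2.48 and 0.68. Their summed level ranged from 172 to 455 CPM in the 72 h and 31.0 to 104 CPM in the 96 h libraries of 1.0 mM gels, and from 111 to 288 CPM and 69.1 to 152 CPM in 1.5 mM gels. Of 7 somite markers, 5 were called lower in 1.0 mM gels and 3 in 1.5 mM gels, with medians of -1.51 and -0.89. Among them, Meox1, a somite homeobox factor, was lower in both (-2.03, SE 0.220, and -1.42, SE 0.230). Their summed level was 207 to 397 CPM in the 72 h and 714 to 847 CPM in the 96 h libraries of 1.0 mM gels, and 265 to 466 CPM and 577 to 787 CPM in 1.5 mM gels. None of the cardiac or somite markers was at 0 in any library. Their part in the values of the 8 genes was not tested.

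Of 17 neural progenitor markers, 12 were tested. In 1.0 mM gels 2 were called higher (Pax6 at 1.24, SE 0.215, and Fabp7 at 1.36, SE 0.245) and 2 lower (Pax3 at -1.43, SE 0.173, and Olig2 at -5.23, SE 0.749), and in 1.5 mM gels 0 were called. Olig2 had 0 to 41 reads per library, with a mean of 0.0139 CPM in the 72 h, 1.0 mM group. It was not tested in 1.5 mM gels, where its 72 h and 96 h means were 0.0148 and 0.700 CPM. The medians were -0.28 and -0.02, and the summed level was 371 to 414 CPM in the 72 h and 345 to 393 CPM in the 96 h libraries of 1.0 mM gels, which overlap, and 418 to 432 CPM against 356 to 405 CPM in 1.5 mM gels, which do not. In 1.5 mM gels Irx3 (mean 99.3 against 66.5 CPM) and Irx5 (64.0 against 41.8 CPM) were higher at 72 h. Sox2 (21.6 against 28.7 CPM) and Pax3 (19.8 against 28.9 CPM) were lower. Of the tested markers 6 were higher and 6 lower there, so the sum does not stand for the list. Of 9 neural crest markers, 6 were tested, with 1 called higher (Tfap2a, 1.46, SE 0.308) and 1 lower (Foxd3, -1.84, SE 0.400) in 1.0 mM gels, and 1 lower in 1.5 mM gels (Foxd3, -1.99, SE 0.401), at medians of 0.14 and 0.13. Sox10, which defines migrating crest cells, had 0 to 4 reads. Of 5 endothelial markers, 0 were called in 1.0 mM gels and 1 lower in 1.5 mM gels (Emcn, -1.68, SE 0.303), with medians of -0.33 and -0.52. Of 5 endoderm markers, 0 were called in either gel, with medians of 0.13 and -0.41.

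Some members varied together between libraries of a group, though not alike in every group. After removing each group's mean from log2 CPM, the correlation over 12 libraries was 0.891 for Map2 with Tubb3 and 0.864 for Nefl with Nefm. It was 0.609 for Mapt with Nefl, 0.644 for Mapt with Nefm and 0.601 for Map2 with Tmod2. For Stmn2 it was 0.186 with Map2 and -0.054 with Tubb3. The value for Map2 with Tubb3 leaned on the 96 h, 1.0 mM group. Map2 read 6.67, 8.03 and 4.52 CPM there, and Tubb3 4.33, 6.14 and 2.65 CPM. In the 96 h, 1.5 mM group Map2 read 6.67, 5.62 and 6.39 CPM, and Tubb3 4.84, 4.74 and 5.57 CPM. Mapt with Nefl also leaned on the 96 h, 1.0 mM libraries. All these correlations are descriptions over libraries that share their group's handling. For Nefl and Nefm the shared exonic stretch may bear on the value, which was not tested. Without removing group means, Map2 correlated at -0.967 with Mapt and at 0.957 with Tmod2, values that include the embedding time difference.

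Nefl followed the summed somite marker level, with a correlation of 0.942 over the 12 libraries and 0.720 within groups, and for Nefm the values were 0.792 and 0.531. For Map2 they were -0.848 and -0.005. For Mapt they were 0.844 and 0.264, for Tmod2 -0.839 and -0.043, and for Stmn2 -0.839 and -0.294. Tubb3 was at -0.681 and 0.381, and Dcx at -0.771 and -0.464. Over the 12 libraries these values include the embedding time difference of both the members and the somite markers. The summed cardiac marker level was followed as well: Nefl correlated with it at -0.837 over the 12 libraries and -0.476 within groups, Tmod2 at 0.708 and 0.503, and Map2 at 0.713 and 0.275. No p-value is attached to these correlations, and all measures come from the same libraries.

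**Figure D5:**
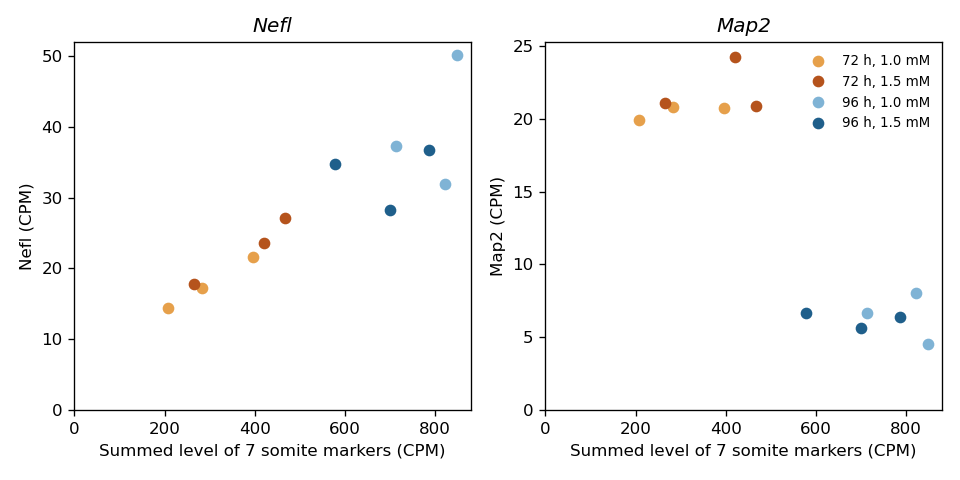
Level of Nefl (left) and Map2 (right) in CPM against the summed level of 7 somite markers in the same library, on linear axes that start at 0; each point is a library, coloured by embedding time and gel concentration. Nefl rose with the somite level between groups and within both 72 h groups, but in each 96 h group the replicate 2 library had the lowest Nefl and not the lowest somite level (within-group correlation 0.720 over all groups), while Map2 lay in 2 sets by embedding time (within-group correlation -0.005).

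The genes whose pattern over the 12 libraries was most like each member were found among 11344 genes with a mean of at least 100 reads, by the correlation of log2 CPM. For Map2 they were Foxj2 (0.978), Ppm1e (0.976) and Tmem163 (0.975). For Tmod2 they were Slc27a2 (0.987), Moxd1 (0.986) and Shh (0.980), the Hedgehog ligand of notochord and floor plate. For Stmn2 they were Chrnb4 (0.982), Prxl2a (0.978) and Bmp7 (0.975), and for Tubb3 they were Capn1 (0.917), Map2 (0.916) and Antxr1 (0.915). Map2 was thus among the genes most like Tubb3.

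For the members that were lower after embedding at 72 h, Nxf1 (0.966), Inpp5d (0.963) and Abtb1 (0.962) were most like Mapt, and Ptn (0.970), Pde8b (0.963) and Dock5 (0.959) most like Nefl. Slc39a6 (0.964), Tcf4 (0.930) and Dock5 (0.927) were most like Nefm, so Nefl and Nefm shared Dock5. For Dcx, with its few reads, the values were lower: Sptb (0.897), Snx10 (0.878) and 4930402H24Rik (0.872). Each correlation is over 12 libraries that fall into 2 embedding times, and is given as a description.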

How the data were processed

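The authors trimmed reads with cutadapt 4.4 and aligned them with STAR 2.7.10b to mm10 with a customised Ensembl annotation. Read counts per gene were deposited unnormalised, and FPKM values were made by the authors with Cufflinks 2.2.1.3. A deposited table of the authors' DESeq2 fold changes, adjusted p-values and calls was not used. Which strand setting was used for counting is not given in the sources used here.

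Counts were tested with edgeR 4.0.16 (quasi-likelihood F test, TMM scaling, filterByExpr with minimum count 10 and minimum total 15) on all genes, without the 36 mitochondrial genes, with Benjamini-Hochberg adjustment. Pairwise comparisons used the 6 libraries of their 2 groups, and comparisons over both factors used all 12. SE is the log2 fold change over the square root of F. CPM use the TMM-scaled totals. Alternatives used DESeq2 1.42.0, limma 3.58.1 and R 4.3.3, with a pseudocount of 0.1 for FPKM. The scripts were tested on simulated data.

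The members and gene lists were chosen with earlier results of these data known. The text names the 8 members, up to 4 called genes with the highest mean CPM from each list (2 where none was called), and the 3 genes most like each member in pattern. Genes named for low or high read counts or for their part in a summed level were chosen after their values were seen. So were Nefh, Tubb5, Tuba1a, Map1b, Kif1a, Kif5c, Tppp3 and Stmn1. The study describes the replicates as independent.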

Additional observations from a re-analysis of the deposited data

How the results depend on the processing

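Each comparison was repeated with DESeq2, limma-voom, RLE scaling, no low-count filter, limma on log2(FPKM + 0.1), each library left out and, for pairwise comparisons, a single fit of all 12 libraries. Limma on log2(FPKM + 0.1) called 0 members by embedding time in 1.0 mM gels, where edgeR called 5. The cause was not tested. For embedding time, the shares of all genes called in these other fits are not given here. Fewer calls among the members therefore cannot be told from fewer calls over all genes. With each library left out, the count was 2 to 6 there (2 without the replicate 3 library of the 96 h group), 3 to 4 in 1.5 mM gels (4 with all libraries) and 3 to 5 over both gels (3 with all libraries). Over both gels it was 5 without the replicate 2 library of the 96 h, 1.0 mM group, the replicate 3 library of the 72 h, 1.5 mM group or the replicate 1 library of the 96 h, 1.5 mM group, and 8 (5 higher, 3 lower) without the fold threshold, where 16.2% of all genes were higher and 14.8% lower. No member was called for gel concentration or the interaction under any of these. Without the low-count filter, the edgeR adjusted p of the Nefl interaction was 0.0269 (log2 fold change 0.61), against 0.953 with it, and 0.0681 for Nefm.

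The replicate numbers are shared by the 4 groups, but the labels do not say that they mark a shared batch. Deviations from group means correlated at 0.044 to 0.302 between libraries of the same number, and in 2 of 4 pairwise comparisons every library correlated best with its own number. With the replicate number as a block, the members called by embedding time were 5 in 1.0 mM gels, 4 in 1.5 mM gels and 3 over both gels, and 0 in the other comparisons. The shares of all genes called with the block are not given here.

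Sign changes concerned differences near 0. For gel concentration at 96 h, Map2 was at 0.0068 by limma-voom and Stmn2 at -5e-04 by limma on FPKM. Over both times, Nefl was at -0.0018 by limma-voom and Mapt at -0.0517 by limma on FPKM. With each library left out, Nefm by embedding time in 1.5 mM gels ranged from -0.332 to 0.0337. For gel concentration at 72 h, Tubb3 ranged from -0.134 to 0.0975 and Stmn2 from -0.0134 to 0.269. At 96 h, Map2 ranged from -0.24 to 0.158, Mapt from -0.0193 to 0.335, Tubb3 from -0.054 to 0.537, Stmn2 from -0.0522 to 0.262 and Nefm from -0.358 to 0.015. Over both times, Map2 ranged from -0.0314 to 0.124, Mapt from -0.0928 to 0.0937, Tubb3 from -0.0384 to 0.199 and Nefl from -0.055 to 0.168. In the interaction, Map2 ranged from -0.0575 to 0.345, Tubb3 from -0.571 to 0.0233 and Stmn2 from -0.145 to 0.196. Dcx, at 3 to 25 reads per library, was called by embedding time in 1.0 mM gels (log2 fold change 1.49) without the low-count filter.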
